A study of Mus musculus with 6 samples.

Results

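CD4 and CD8 T cells of the normal mouse kidney were compared by single-cell RNA sequencing, with 1 library of each. Members were the barcodes of the control CD4 and control CD8 libraries with at least 500 detected genes, at most 20% of unique molecular identifiers (UMIs) in mitochondrial genes and at least 1 UMI of Cd3d, Cd3e or Cd3g, the genes of the CD3 chains of the T cell receptor complex. This rule kept 9518 of 10090 barcodes in control CD4 and 9685 of 10885 in control CD8, or 19203 cells in all. The whole series held 54039 barcodes in 6 libraries, of which 49177 met the same rule. Both libraries came from kidneys of wild-type male C57BL/6J mice aged 7 to 8 weeks that had no ischemic injury, and neither group carried a transgene or received an agent. Kidneys were digested with collagenase, mononuclear cells were taken from a Percoll gradient, and cells positive for CD45 and the T cell receptor β chain were sorted with antibodies to CD4 and CD8. The control double negative (DN) library, of T cells with neither coreceptor, and the CD4 and CD8 libraries of kidneys after ischemia-reperfusion (IR) are given beside the results. How many mice stood behind each library was not stated in the sources used here.

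CD4 and CD8 are the coreceptors that bind MHC class II and MHC class I, respectively, while the T cell receptor reads the peptide. CD4 T cells mainly act as helper or regulatory cells, through membrane ligands such as CD40 ligand and through cytokines, whereas CD8 T cells kill target cells with perforin and granzymes and attract other leukocytes with chemokines. The choice between both lineages in the thymus rests on the transcription factors Zbtb7b (ThPOK) on the CD4 side and Runx3 on the CD8 side.

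For every library, the UMIs of all cells kept were pooled and expressed as CPM, counts scaled to a total of 1e6. Mitochondrial genes, ribosomal protein genes named Rpl or Rps and Malat1 were left out of the total. The pooled totals were 58703574 UMIs in control CD4 and 55049660 in control CD8, so that 3 UMIs equalled 0.0511 and 0.0545 CPM. The median cell held 7267 UMIs in control CD4 and 6943 in control CD8. Ribosomal protein genes took 16.7% and 22.8% of UMIs, mitochondrial genes 2.28% and 1.73%, and Malat1 2.08% and 1.93%. With 1 library per group no test was run and no difference has a replicate check. Values in brackets are exact 95% intervals, Poisson for CPM and Clopper-Pearson for shares of cells, and they cover counting error only. Control CD4 and control CD8 shared 29 barcodes among the cells kept.

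The sort was examined first, and since these proteins were the gate, the following values check the labels and are no finding. Cd4 (chr6:124864692-124888221) was at 203 CPM (199 to 206) in control CD4 and 0.127 CPM (7 UMIs) in control CD8, with 0.33 CPM in control DN. A Cd4 UMI was found in 59.2% of control CD4 cells (58.2 to 60.2) and in 0.062% of control CD8 cells. Cd8a (chr6:71373427-71379173) was at 0.0511 CPM (3 UMIs) in control CD4 and 853 CPM (845 to 861) in control CD8, a 16692-fold difference with a counting interval of 5711 to 80942. Cd8b1, which encodes the β chain of CD8, was at 3.54 CPM in control CD4 and 1348 CPM in control CD8. A UMI of Cd8a or Cd8b1 was found in 97.0% of control CD8 cells (96.7 to 97.4) and in 185 control CD4 cells (1.94%), of which 132 also held a Cd4 UMI. In control CD4, 182 cells held Cd8b1 and 3 held Cd8a. All 3 coreceptor genes thus separated both libraries as labelled. The constant gene of the receptor α chain, Trac, was at 819 and 824 CPM, and Cd3e was at 598 and 737 CPM, in control CD4 and CD8.

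The second largest ratio of any gene towards CD8 belonged to a transcript beside the Cd8 genes. Gm44174, annotated as a lincRNA of 20250 bases (chr6:71353035-71373284, + strand, GRCm38), lies between Cd8b1 and Cd8a on the same strand, 15540 bases after the end of Cd8b1 and 142 bases before the start of Cd8a. It was at 0.0681 CPM (4 UMIs) in control CD4 and 315 CPM (310 to 320) in control CD8, a 4621-fold difference (1805 to 16963). In cells thinned to 1500 UMIs each, 34.8% of control CD8 cells held a Gm44174 UMI, against 0.0221% of control CD4 and 0.0109% of control DN cells. The promoter window of Cd8a in RefSeq (GRCm38.p6, chr6:71373177-71373476, + strand) is printed because it holds the 3′ end of Gm44174. Its first 108 bases, in capitals, belong to Gm44174 and its last 50 bases to Cd8a.

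Cd8a promoter: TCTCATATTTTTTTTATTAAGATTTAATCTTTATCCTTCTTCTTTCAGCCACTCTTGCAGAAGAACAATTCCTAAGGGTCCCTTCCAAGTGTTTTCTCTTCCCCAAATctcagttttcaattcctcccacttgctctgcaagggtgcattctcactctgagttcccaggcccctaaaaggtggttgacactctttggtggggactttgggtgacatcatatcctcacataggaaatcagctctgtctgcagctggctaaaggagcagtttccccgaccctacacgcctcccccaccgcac

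The features annotated within 200 kb of each coreceptor gene were then listed, a choice made after their values were seen. Around Cd8b1 and Cd8a there were 15 features, of which 9 reached 10 CPM in the higher library. Of these, 5 were at least 2-fold higher in control CD8, namely Cd8a, Cd8b1, Gm44174, Gm44175 and Smyd1, which encodes a histone methyltransferase known from muscle. Gm44175 (chr6:71354351-71360829, - strand) lies inside Gm44174 on the opposite strand and was at 0.187 and 34.8 CPM in control CD4 and CD8. The study states default Cell Ranger settings and does not state the use of strand, so the separate values of Gm44175 and Gm44174 are uncertain. Smyd1 (chr6:71213940-71322233, - strand), which also overlaps Krcc1 on the opposite strand, was at 2.23 and 41.8 CPM. The other neighbours differed little: Krcc1 was at 109 and 112 CPM and Rmnd5a, which starts 3′ of Cd8a, at 108 and 117 CPM. Around Cd4 there were 29 features, of which 17 reached 10 CPM. Cd4 was the only one at least 2-fold higher in control CD4, while its neighbours Lag3 (6.59 and 29.0 CPM) and Ptpn6 (69.3 and 139 CPM) were at least 2-fold higher in control CD8.

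Across the genome, 8952 genes reached 10 CPM in the higher library. Of these, 234 (2.61%) were at least 2-fold higher in control CD4 and 151 (1.69%) at least 2-fold higher in control CD8, which is 385 (4.30%) in either direction. The median log2 ratio of CD4 over CD8 was -0.03 over all 8952 genes. Of the 234 genes, 117 were under 10 CPM in control CD8, and of the 151, 84 were under it in control CD4, and for these the direction was set by the limit. The counts for gene lists given in the following stand beside 2.61% of all genes towards CD4 and 1.69% towards CD8. Members of a list that were under 10 CPM in the lower library had their direction set in the same way. With a level of at least 50 CPM, the genes farthest towards CD8 by ratio were Cd8a, Gm44174, Cd8b1, Eomes, Gzma and Ccl3, and those farthest towards CD4 were Cd4, Il4, Ly6c1, Zbtb16 and Tnfrsf4.

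**Figure D1:**
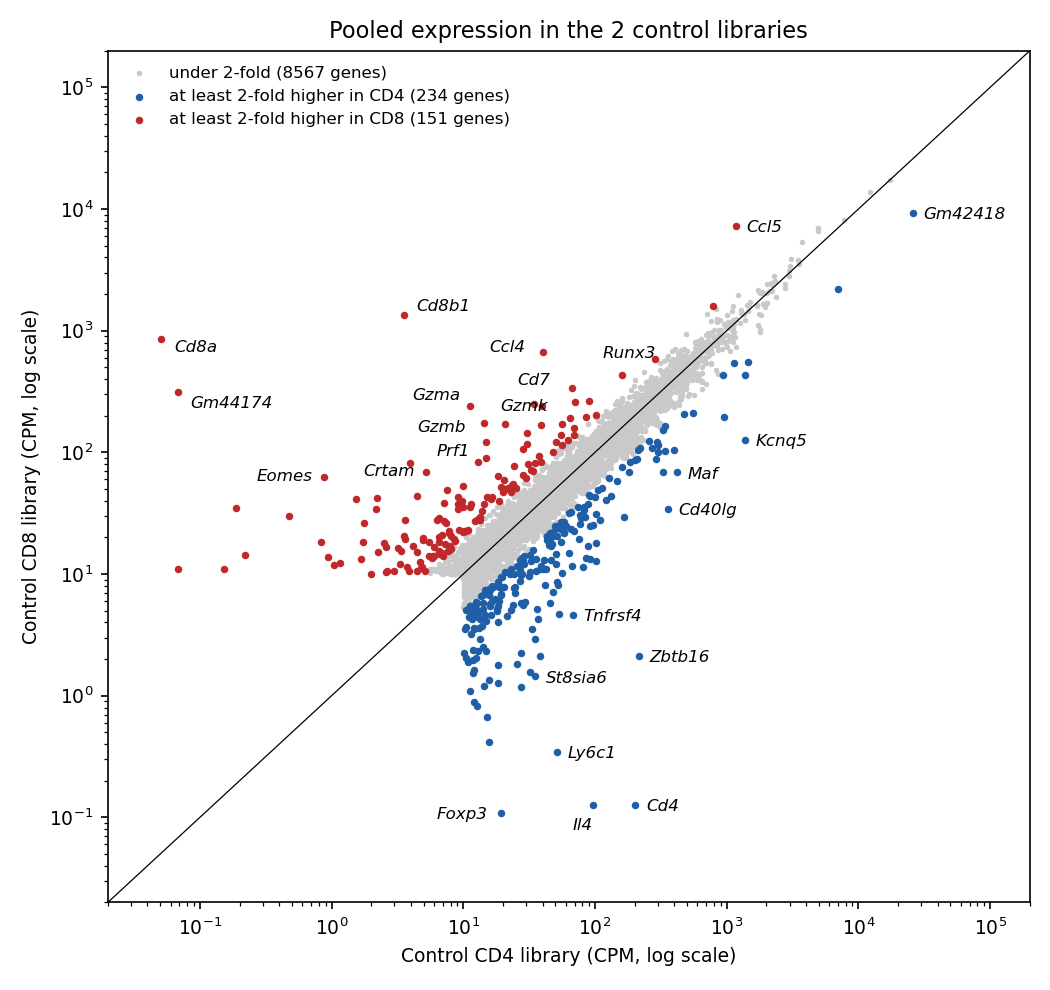
Pooled expression of the 8952 genes at 10 CPM or more in the higher library, in control CD4 (x axis, CPM, log scale) and control CD8 (y axis, CPM, log scale), 1 point per gene. The 234 genes at least 2-fold higher in CD4 are blue, the 151 at least 2-fold higher in CD8 are red, the line marks equal levels, and Cd8a, Gm44174, Cd4 and Il4 lie farthest from it.

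Chemokines of the CC family were among the largest ratios towards CD8. Ccl3 (chr11:83647844-83649355) and Ccl4 (chr11:83662584-83664683) encode the ligands MIP-1α and MIP-1β, which attract T cells and monocytes. Ccl3 was at 3.92 CPM (3.43 to 4.46) in control CD4 and 82.1 CPM (79.7 to 84.6) in control CD8, 21-fold higher. Ccl4 was at 40.4 CPM (38.8 to 42.1) and 666 CPM (659 to 673), 16.5-fold higher in CD8. Ccl5, which encodes RANTES, was the gene with the largest difference in CPM towards CD8, at 1172 CPM (1163 to 1180) in control CD4 and 7321 CPM (7299 to 7344) in control CD8. In the control DN library these genes were at 12.0, 85.2 and 1619 CPM, so that control CD8 was the highest of the 3 control libraries for each. After thinning, Ccl5 was found in 84.0% of control CD8 cells and 46.1% of control CD4 cells, and Ccl4 in 31.1% and 1.71%. Within control CD8, 36.1% of the 6716 cells with Ccl5 held Ccl4 (34.9 to 37.2), against 5.07% of the cells without it. Ccl1, a ligand of CCR8, was the only chemokine at least 2-fold higher in control CD4, at 45.3 against 18.5 CPM, and it came from 0.929% and 0.2% of cells. Averaged over cells in place of pooled UMIs, the log2 ratio of Ccl1 went from 1.30 to 0.10. Of 6 chemokine genes at 10 CPM, 3 were thus higher in CD8, 1 in CD4, and Xcl1 and Cxcl10 were within 2-fold (417 and 393 CPM, and 48.5 and 41.8 CPM).

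Of 15 cytotoxic granule genes that reached 10 CPM, 7 were at least 2-fold higher in CD8 and 1 in CD4, beside 2.61% and 1.69% of all genes towards CD4 and CD8, and their median log2 ratio was -0.80. Gzma (chr13:113093825-113100981), which encodes granzyme A, was at 11.3 CPM (10.5 to 12.2) in control CD4 and 240 CPM (236 to 244) in control CD8, with 76.6 CPM in control DN. Gzmb was at 14.4, 173 and 69.9 CPM in the same order, and Prf1, the gene of the pore former perforin, at 14.9, 122 and 54.5 CPM. Gzmk, another granzyme gene, differed from these in the DN library: it was at 20.7 CPM in control CD4 and 172 CPM in control CD8, with 3.13 CPM in control DN. Gzmm was at 2.18 and 34 CPM and Cst7, which encodes the protease inhibitor cystatin F, at 30.7 and 118 CPM in control CD4 and CD8. The granule protein gene Nkg7 was near the limit, at 784 and 1604 CPM, a 2.05-fold difference. Its log2 ratio of -1.03 was -0.93 with the removed features kept and -0.99 without Foxp3 barcodes. In the opposite direction lay Lyst, the regulator of lysosomal trafficking, at 943 and 433 CPM (log2 1.12, 0.87 with only cells holding the sorted coreceptor and 0.54 without Zbtb16 barcodes).

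The granule genes were spread unequally over the CD8 cells. After thinning, Gzmk was found in 20.5% of control CD8 cells (19.6 to 21.4), Prf1 in 16.8%, Gzmb in 11.2% and Gzma in 5.33%. The corresponding shares in control CD4 were 2.99%, 2.21%, 1.58% and 0.31%, and in control DN 0.414%, 8.14%, 5.85% and 2.25%. The top 5% of cells for each gene held 98.9% of the Gzma UMIs and 42.4% of the Gzmk UMIs of control CD8. Of the 1641 CD8 cells with Gzmk, 7.86% also held Gzma (6.6 to 9.27) and 17.9% held Gzmb, against 4.67% and 9.52% of the cells without Gzmk. Members of the granzyme family are similar in sequence, and reads split between them are uncertain.

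Among transcription factors of the CD8 side, Eomes and Runx3 were higher in control CD8. Eomes (chr9:118478212-118486132), a T-box factor of effector and memory CD8 and NK cells, was at 0.869 CPM (0.647 to 1.14) in control CD4, against 63.0 CPM (61.0 to 65.2) in control CD8, and at 4.46 CPM in control DN. This was a 72.6-fold difference (55.1 to 97.6), and Eomes was found in 7.45% of thinned control CD8 cells against 0.133% of control CD4 and 0.425% of control DN cells. Runx3 (chr4:135120652-135177990) was at 159, 434 and 228 CPM in control CD4, CD8 and DN, and was found in 21.2%, 45.8% and 26.3% of cells. Id3, a factor of memory cells, was at 14.3 and 37.9 CPM. Other genes of this list went the other way or were within 2-fold: Runx1 was at 1441 and 556 CPM, Zfp683 (Hobit) at 47.8 and 22.3 CPM and Hic1 at 11.5 and 5.16 CPM (log2 1.15, and 0.96 after thinning), while the T-box factor Tbx21 (T-bet) was at 293 and 226 CPM. In all, 3 of 13 genes were at least 2-fold higher in CD8, 3 in CD4, and the median log2 ratio was 0.14.

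Of 13 coinhibitory receptor genes at 10 CPM, 4 were at least 2-fold higher in CD8 and none in CD4, with a median log2 ratio of -0.88. Cd160 was at 39.4 and 241 CPM in control CD4 and CD8, Lag3 at 6.59 and 29.0 CPM, Havcr2 (TIM-3) at 1.72 and 18.2 CPM and Cd244a (2B4) at 1.67 and 13.4 CPM. The last 3 of these reached 10 CPM through control CD8 alone, and the count stands beside 1.69% of all genes. The checkpoint genes Pdcd1 (34.8 and 64.2 CPM) and Ctla4 (144 and 101 CPM) were within 2-fold, Pdcd1 with a log2 ratio of -0.88 that was -1.22 as a mean over cells. Without barcodes holding a UMI of Foxp3, the regulatory T cell factor, an alternative chosen after the data were seen, Tigit (-1.17) and Cd101 (-1.10) also passed 2-fold towards CD8, and the log2 ratio of Ctla4 turned from 0.52 to -0.13. Outside this list, Crtam, which encodes an adhesion receptor of activated CD8 and NK cells, was at 5.21 CPM (4.64 to 5.83) and 68.6 CPM (66.4 to 70.8), and Klrd1, the CD94 chain of NK receptors, at 71.0 and 260 CPM. Cd7, a T and NK cell surface protein, was at 34.4 and 249 CPM, and Plek, which encodes pleckstrin, at 12.9 and 83.2 CPM. In control DN, Klrd1 (300 CPM) was above its CD8 level and Cd7 (143 CPM), Cd160 (124 CPM), Plek (11.6 CPM) and Crtam (13.6 CPM) were below theirs.

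Of 13 NK receptor genes at 10 CPM, 2 were at least 2-fold higher in CD8 (Klrd1 and Klra7) and 3 in CD4 (Klrb1c, Klra1 and Klrb1f), with a median log2 ratio of -0.35. Klrb1c and Klra1 reached 10 CPM through control CD4 alone, and Klra7 through control CD8 alone. Klrb1c, the gene of the NK1.1 antigen, reached 45.6 CPM (43.9 to 47.4) in control CD4 against 5.78 CPM (5.16 to 6.45) in control CD8, while control DN had 197 CPM. Klra7 was at 3.61, 19.3 and 110 CPM and Klra1 at 12.2, 5.41 and 140 CPM. This split changed without the barcodes that held a UMI of Zbtb16, a factor of innate-like T cells, an alternative chosen after the data were seen. Klrk1 then had a log2 ratio of -1.78 (-0.76 with all cells), Klrc1 of -1.85 (-0.83), Klrc2 of -1.60 (-0.43) and Klre1 of -1.51 (-0.35). Klra1 had -0.37, Klrb1f 0.45 and Klrb1c 1.70, so that of the 3 genes higher in CD4 Klrb1c alone stayed past 2-fold. With only cells holding a UMI of the sorted coreceptor, Klrk1 (-1.28) and Klrc1 (-1.37) also passed 2-fold towards CD8. In that setting Klra1 came under 2-fold towards CD4, from 1.18 to 0.75. The Klra, Klrc and Klrb1 families hold near copies, so single values within them are uncertain.

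**Figure D2:**
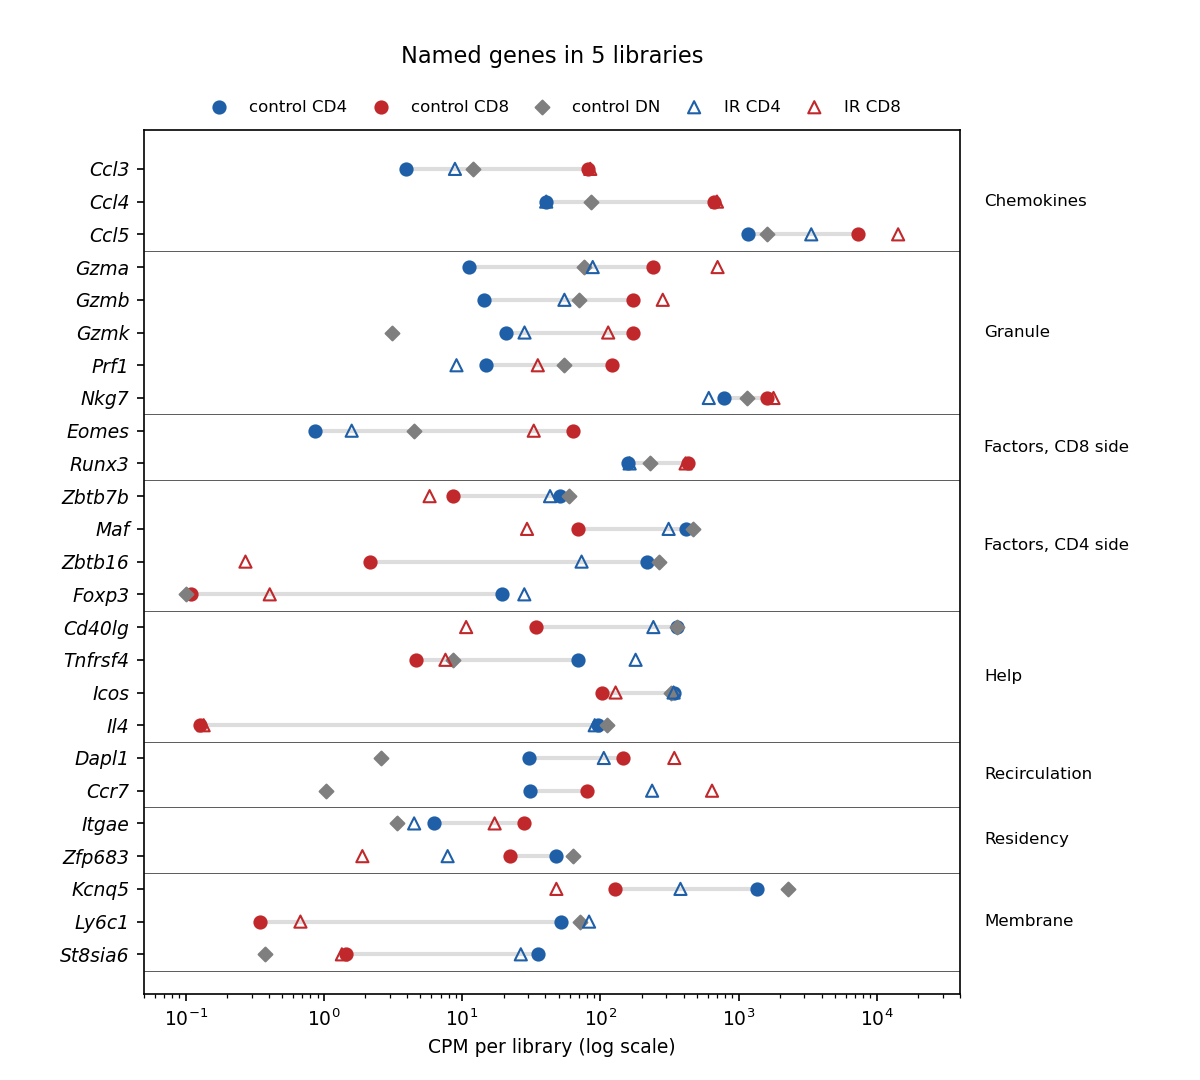
Pooled levels (x axis, CPM, log scale) of 25 named genes, grouped by role, in the control CD4, CD8 and DN libraries (filled symbols) and in the CD4 and CD8 libraries after ischemia-reperfusion (IR, open triangles), 1 library per symbol. Control CD8 lies to the right of control CD4 for chemokine and granule genes, and to the left for Zbtb7b, Maf, Zbtb16, Foxp3, Cd40lg, Il4 and Kcnq5.

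Genes of naive and recirculating T cells were at least 2-fold higher in control CD8 for 5 of 14, in control CD4 for none, beside 1.69% of all genes towards CD8, with a median log2 ratio of -0.60. Ccr7, the chemokine receptor for entry into lymph nodes, was at 31.2 and 80.5 CPM in control CD4 and CD8, and Dapl1, known from naive and memory CD8 cells, at 30.5 and 145 CPM. Actn1 was at 37.6 and 93.7 CPM and Nsg2 at 21.8 and 50.9 CPM. The log2 ratio of Nsg2, -1.22, was -0.99 after thinning and -0.98 as a mean over cells. Without Zbtb16 barcodes 2 of the 14 were at least 2-fold higher in CD8, and Ccr7 (-0.71), Actn1 (-0.69) and Nsg2 (-0.58) came under it. The transcription factor genes Klf2 (403 and 704 CPM), Tcf7 (203 and 297 CPM) and Lef1 (445 and 542 CPM) were higher in CD8 by less than 2-fold. In control DN, Ccr7 was at 1.03 and Dapl1 at 2.60 CPM. After thinning, Ccr7 was found in 3.66% of control CD4, 8.75% of control CD8 and 0.109% of control DN cells. Within control CD8, 51.7% of the 929 cells with Dapl1 held Ccl5 (48.4 to 54.9), against 88.2% of the others. In control CD4, 8.26% of the 230 cells with Dapl1 held Ccl5 (5.05 to 12.6), against 47.1% of the others.

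Of 12 tissue residency genes, 1 was at least 2-fold higher in control CD8 and 2 in control CD4, beside 1.69% and 2.61% of all genes. Itgae, the CD103 integrin that binds E-cadherin, was at 6.29 CPM in control CD4 and 27.9 CPM in control CD8. Cd44 (342 and 166 CPM), an adhesion receptor of antigen-experienced cells, and Zfp683 were at least 2-fold higher in control CD4, with log2 ratios of 1.04 and 1.10 that came to 0.98 and 0.92 without Zbtb16 barcodes. The other 9 were within 2-fold, among them Cd69 (421 and 573 CPM), Itga1 (249 and 263 CPM), Rgs1 (717 and 616 CPM) and Cxcr6 (772 and 659 CPM). Another of these, Ahr, had a log2 ratio of 0.76 that was 1.05 after thinning.

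Among the transcription factors of the CD4 side, 5 of 13 were at least 2-fold higher in control CD4 and none in control CD8, with a median log2 ratio of 0.75. Zbtb7b (chr3:89377644-89394776), the CD4 lineage factor, was at 51.5 CPM (49.6 to 53.3) in control CD4 and 8.54 CPM (7.78 to 9.35) in control CD8, with 58.9 CPM in control DN. Maf, a factor for Il4 and other cytokine genes, was at 419, 68.6 and 472 CPM. Rora was at 474, 206 and 434 CPM and Ikzf2 (Helios) at 395, 105 and 366 CPM, so that control DN resembled control CD4 in level for these 4 genes. Foxp3, described with the regulatory genes, was the fifth. Zbtb7b and Foxp3 reached 10 CPM through control CD4 alone. Gata3 (171 and 94.5 CPM), Satb1 (654 and 388 CPM) and Tox (494 and 623 CPM) were within 2-fold. Myb had a log2 ratio of -0.97. It passed 2-fold towards CD8 after thinning (-1.13), as a mean over cells (-1.11) and without the top 5% of barcodes (-1.37).

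Of 11 costimulatory genes at 10 CPM, 5 were at least 2-fold higher in control CD4, 1, Crtam, in control CD8 and 5 in neither, with a median log2 ratio of 0.92. Cd40lg (chrX:57212143-57224042), the ligand with which helper cells act on B cells and antigen-presenting cells, was at 356 CPM (351 to 361) in control CD4 and 34.1 CPM (32.6 to 35.7) in control CD8, 10.4-fold higher, and was found in 36.1% and 4.18% of thinned cells. Icos was at 341 and 103 CPM. Tnfrsf4, which encodes the costimulatory receptor OX40, was at 68.4 CPM (66.3 to 70.6) in control CD4 and 4.65 CPM (4.10 to 5.26) in control CD8, with 8.53 CPM in control DN. Tnfrsf18 (GITR) was at 207 and 87.9 CPM and Tnfrsf25 (DR3) at 29.6 and 5.85 CPM. Tnfrsf4 and Tnfrsf25 reached 10 CPM through control CD4 alone, and Crtam through control CD8 alone. Cd28 was at 691 and 365 CPM and Cd27 at 156 and 249 CPM, both within 2-fold.

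Il4 (chr11:53602982-53618669), which encodes the cytokine interleukin-4, had the second largest ratio towards CD4 after Cd4 itself. It was at 96.4 CPM (93.9 to 98.9) in control CD4 and 0.127 CPM (7 UMIs, 0.0511 to 0.262) in control CD8, with 112 CPM in control DN, a 758-fold difference between CD4 and CD8 (368 to 1886). Tnfsf11 (RANKL) was at 50.6 and 12.0 CPM and Csf2 (GM-CSF) at 18.2 and 4.03 CPM. These were the 3 of 10 cytokine genes at 10 CPM that were at least 2-fold higher in CD4, and none was so in CD8. Il4 and Csf2 reached 10 CPM through control CD4 alone. Ifng (444 and 321 CPM), Tnf (141 and 126 CPM), Il2 (44.8 and 42.0 CPM) and Ltb (880 and 998 CPM) differed by less than 2-fold. Il17a was at 0.426 and 0.0182 CPM, and Il5 and Il22 were at or below 0.0511 CPM in both libraries.

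Il4 UMIs were more frequent in cells with Zbtb16 (chr9:48654297-48836222), which encodes PLZF, the factor known from invariant NKT and other innate-like T cells. Zbtb16 was at 217 CPM (213 to 221) in control CD4 and 2.14 CPM (1.77 to 2.57) in control CD8, with 266 CPM in control DN, 101-fold higher in CD4 than in CD8 (84.5 to 122). After thinning it was found in 17.7% of control CD4, 0.288% of control CD8 and 26.2% of control DN cells. Of the 1601 control CD4 cells with Zbtb16, 19.0% held Il4 (17.1 to 21), against 5.44% of the others, and 11.5% held Klrb1c, against 3.86%. In control DN, these shares were 15.2% against 9.55% for Il4, and 16.9% against 23.1%, the other way, for Klrb1c. Trav11, the variable segment of the invariant NKT receptor, was at 3.63 and 0.0908 CPM in control CD4 and CD8 and did not reach 10 CPM. Of the 6 genes of the invariant NKT list at 10 CPM, Il4, Zbtb16 and Klrb1c were at least 2-fold higher in CD4, and Slamf6 (69.6 and 92.0 CPM), Slamf1 (233 and 127 CPM) and Sh2d1a (206 and 212 CPM) were within 2-fold. All 3 genes called reached 10 CPM through control CD4 alone. Slamf1 had a log2 ratio of 0.88, which was 1.01 with only cells holding the sorted coreceptor and 1.13 without Zbtb16 barcodes.

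Among the 15 largest ratios towards CD4 of genes at 50 CPM or more, the largest CPM was that of Kcnq5 (chr1:21398403-21961942), which encodes a voltage-gated potassium channel. It was at 1370 CPM (1360 to 1379) in control CD4 and 127 CPM (124 to 130) in control CD8, with 2295 CPM in control DN. It was found in 45.9%, 10.3% and 76.7% of thinned cells. In control CD4 it was found in 79.6% of cells with Zbtb16 and 38.6% of cells without, and in 84.2% of cells with Il4 and 42.6% of cells without. In control DN, where most cells held it, the shares with and without Zbtb16 were 77.6% and 76.4%.

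Genes of the γ chain of the γδ receptor were higher in the same library as Zbtb16. Trgv2 was at 38.6, 11.7 and 191 CPM in control CD4, CD8 and DN, Tcrg-C2 at 46.5, 13 and 147 CPM, Tcrg-C4 at 37.1, 4.25 and 120 CPM and Tcrg-C1 at 18.1, 5.14 and 63.6 CPM. These were the 4 of 9 γδ genes at 10 CPM, and each was at least 2-fold higher in CD4. Tcrg-C4 and Tcrg-C1 reached 10 CPM through control CD4 alone. Without Zbtb16 barcodes, Tcrg-C4, with a log2 ratio of 1.53, was the only one still past 2-fold, and Tcrg-C1 had 0.40. Trdc, the constant gene of the δ chain, was at 3.53 and 5.25 CPM, and the δ variable genes Trdv1 and Trdv4 were at or below 1.11 CPM in both libraries. In control CD4, 11.3% of cells with Zbtb16 held Tcrg-C2, against 3.51% of the others, and in control DN 18.2% against 16.7%. The constant genes of the γ chain are similar in sequence, and their separate values are uncertain.

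Cells of control CD4 with and without a Cd4 UMI were also set side by side, a choice made after the data were seen. The 5633 cells with a Cd4 UMI had a median of 7672 UMIs and the 3885 without one 6655. Il4 was at 69.2 CPM in the former and 148 CPM in the latter, Zbtb16 at 185 and 277 CPM, Kcnq5 at 1028 and 2013 CPM, and Klrb1c at 30.2 and 74.6 CPM. In control DN these genes were at 112, 266, 2295 and 197 CPM. Zbtb7b (51.5 and 51.4 CPM), Cd40lg (363 and 343 CPM) and Ccr4 (32.3 and 35.1 CPM) differed little, and Foxp3 (22.4 and 13.9 CPM) and Tnfrsf4 (84.5 and 38.2 CPM) were higher in cells with a Cd4 UMI. In control DN, Foxp3 was at 0.1 CPM and Tnfrsf4 at 8.53 CPM. Whether any cells without a Cd4 UMI lacked CD4 was not tested. With only cells holding a UMI of the sorted coreceptor, the log2 ratio of CD4 over CD8 was 9.88 for Il4 (9.57 with all cells), 6.47 for Zbtb16 (6.66) and 3.02 for Kcnq5 (3.43). Under this choice 221 genes were at least 2-fold higher in CD4 and 143 in CD8, and 208 and 133 of these were among the 234 and 151.

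When barcodes with a Zbtb16 UMI were left out, also chosen after the data were seen (3245 cells of control CD4 and 49 of control CD8), 201 genes were at least 2-fold higher in CD4 and 163 in CD8, and 161 and 112 of these were among the 234 and 151, so that calls were gained as well as lost. The log2 ratio of Kcnq5 went from 3.43 to 2.33, of Il4 from 9.57 to 7.51, of Csf2 from 2.17 to 0.77, of Tcrg-C2 from 1.83 to 0.21 and of Trgv2 from 1.72 to 0.13. Towards CD8, Ccr7 went from -1.36 to -0.71. Further named genes that then came under 2-fold were Nr3c1, Zfp683, Lyst, Ccl1, Ccr2, Cd44, Atf3, Klra1, Klrb1f and Tcrg-C1 towards CD4, and Id3, Actn1, Nsg2 and Hk2 towards CD8. Among genes of the lists, Spry2 (0.38 with all cells and -1.07 without these barcodes), Myb (-0.97 and -1.36), Ctsw (-0.80 and -1.12), Ier3 (-0.92 and -1.04) and Ly6c2 (-0.63 and -1.59) then passed 2-fold towards CD8, and St6gal1 (0.65 and 1.25) and Slamf1 (0.88 and 1.13) towards CD4, besides the NK receptor, cell cycle and MHC genes named elsewhere. Zbtb7b (2.60), Maf (2.53), Cd40lg (3.53), Ccl4 (-4.36) and Eomes (-5.53) kept a ratio of more than 2-fold. The barcodes left out were chosen by UMIs before thinning, so this choice depends on depth, and it fell almost only on control CD4. The part of depth in these changes was not tested.

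Regulatory T cell genes were higher in control CD4 for 6 of 10, in control CD8 for none, with a median log2 ratio of 1.40. Foxp3 (chrX:7573644-7595245), the defining factor, was at 19.4 CPM (18.3 to 20.6) in control CD4 and 0.109 CPM (6 UMIs) in control CD8, with 0.10 CPM in control DN, a 178-fold difference between CD4 and CD8 (81.7 to 487). Il2ra, the CD25 chain of the interleukin-2 receptor, was at 48.3 and 7.10 CPM, but at 58.8 CPM in control DN. Tnfrsf4, Ikzf2, Tnfrsf18 and Capg (76.3 and 25.8 CPM) were the other 4. Foxp3, Il2ra and Tnfrsf4 reached 10 CPM through control CD4 alone, so their direction was set by that limit. Foxp3 was found in 1.94% of thinned control CD4 cells (1.66 to 2.24), in 0.0375% of control CD8 and in 0.0109% of control DN cells. Of the 175 control CD4 cells with Foxp3, 45.7% held Tnfrsf4 (38.2 to 53.4), against 4.90% of the others, and 25.1% held Il2ra, against 5.19%. Only 4 cells held Foxp3 and Zbtb16, and 35.4% of cells with Foxp3 held Kcnq5, against 46.1% of the others. Without the 398 control CD4 cells that had a Foxp3 UMI before thinning, and the 6 of control CD8, the log2 ratio of Tnfrsf4 went from 3.88 to 3.1, of Ikzf2 from 1.91 to 1.23, of Capg from 1.56 to 0.98 and of Il2ra from 2.76 to 2.58.

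**Figure D3:**
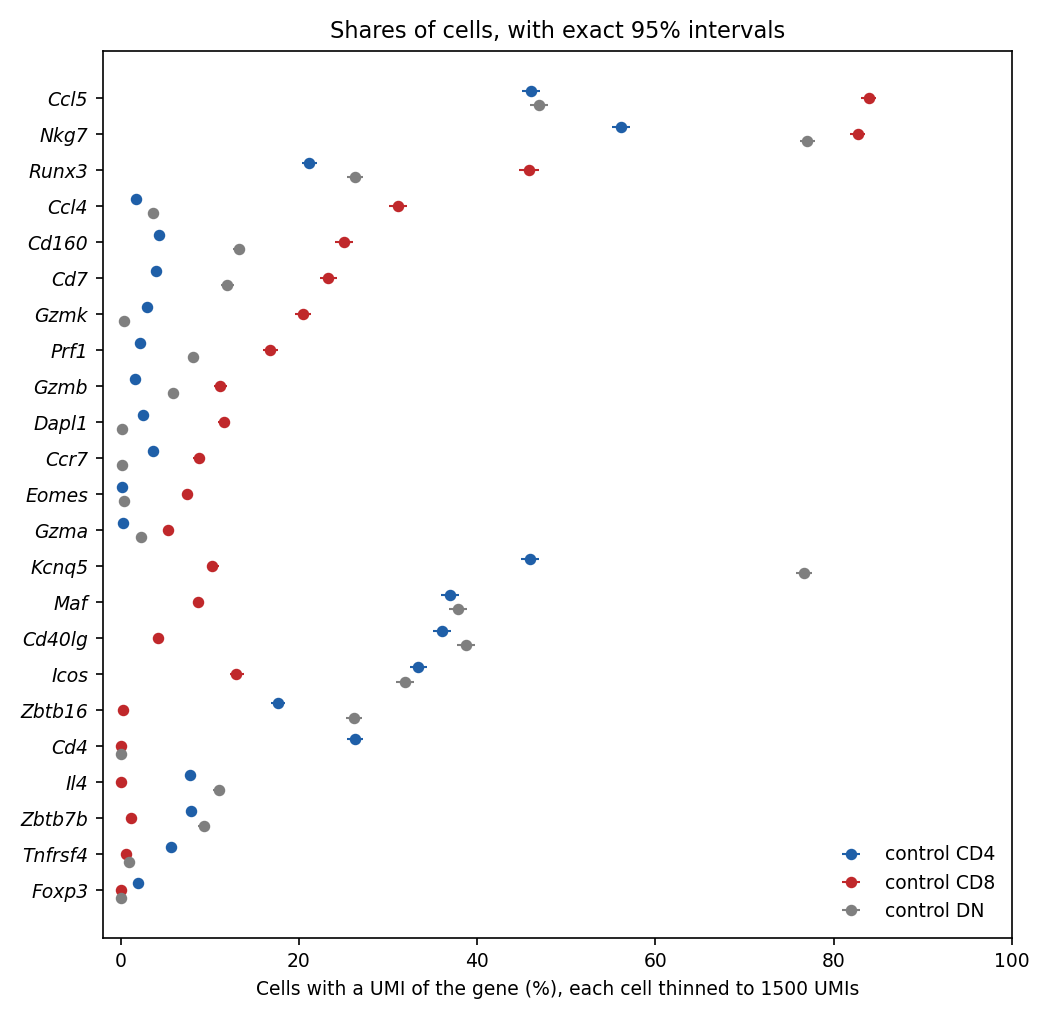
Share of cells (x axis, %) with at least 1 UMI of 23 named genes in control CD4, CD8 and DN, each cell thinned to 1500 UMIs, with bars for exact 95% intervals that cover counting error only. Ccl5 was found in 84.0% of CD8 and 46.1% of CD4 cells, and Kcnq5 in 45.9% of CD4, 10.3% of CD8 and 76.7% of DN cells.

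Chemokine receptors of the CD4 side were led by Ccr4 and Ccr8. Ccr4 was at 33.3 CPM (31.8 to 34.8) in control CD4 and 3.51 CPM (3.03 to 4.04) in control CD8, Ccr8 at 14.4 and 1.20 CPM, and Ccr2, which binds monocyte-attracting chemokines, at 182 and 69.3 CPM (log2 0.79 without Zbtb16 barcodes). Cx3cr1, the fractalkine receptor, was the only one of 12 that was at least 2-fold higher in control CD8, at 7.80 and 22.4 CPM. Ccr4 and Ccr8 reached 10 CPM through control CD4 alone, and Cx3cr1 through control CD8 alone. Cxcr3 (381 and 331 CPM) was within 2-fold. Among cytokine receptors, 2 of 21 were at least 2-fold higher in CD4, Il2ra and Il12rb2 (301 and 100 CPM), and none in CD8, beside 2.61% and 1.69% of all genes.

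Surface antigens and adhesion genes included one of the largest ratios. Ly6c1 (chr15:75044018-75048830) was at 51.7 CPM (49.9 to 53.6) in control CD4 and 0.345 CPM (19 UMIs) in control CD8, with 71.5 CPM in control DN, whereas its close copy Ly6c2 was at 426, 658 and 1178 CPM. Both encode Ly6C proteins of similar sequence, so their separate values are uncertain. Ly6a (Sca-1) was at 556 and 209 CPM and Itgb3, the β3 integrin, at 91.0 and 13.2 CPM. Of the 17 genes of this list, these 3 were at least 2-fold higher in CD4 and none in CD8. Among 10 sialyltransferase genes, 3 were at least 2-fold higher in CD4 and none in CD8. St8sia6 was at 35.3 CPM (33.8 to 36.9) in control CD4 and 1.44 CPM in control CD8, with 0.373 CPM in control DN, St6galnac3 at 953, 194 and 984 CPM, and St3gal2 at 18.7, 5.99 and 13.7 CPM. St8sia6 and St3gal2, and Ly6c1 of the list before, reached 10 CPM through control CD4 alone.

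The other genes among these 15 largest ratios had varied roles. Mmp9, a matrix protease, was at 53.3 and 4.72 CPM in control CD4 and CD8, Anxa1 (annexin A1) at 101 and 12.9 CPM and Tbc1d4, a regulator of glucose transporter traffic, at 81.5 and 11.5 CPM. Plcb4, a phospholipase C, was at 52.2 and 8.07 CPM and Podnl1 at 84.9 and 13.5 CPM. Each of these 5 genes was higher in control DN (60.1, 221, 63.3, 34.8 and 80.6 CPM) than in control CD8.

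Of the lists with at least 6 genes at 10 CPM, 5 had no gene at least 2-fold apart, beside 4.30% over all genes. None of the 21 genes of the receptor complex and proximal signalling, the 21 interferon-stimulated genes, the 14 MHC genes, the 12 BCL2 family genes and the 17 cell cycle genes reached this ratio. The first of these lists holds Cd3d, Cd3e and Cd3g, which were also used to choose the cells. Cd28, also of this list, had a log2 ratio of 0.92, and 1.02 with the removed features kept. The median log2 ratios of the 5 lists were -0.10, 0.03, -0.08, -0.12 and -0.51. Of the cell cycle genes 16 were lower in control CD4, among them Mki67 (72.8 and 90.1 CPM), Birc5 (28.8 and 47.3 CPM) and Top2a (94.4 and 125 CPM), each by less than 2-fold. Ube2c, with a log2 ratio of -0.69, passed 2-fold after thinning (-1.10) and as a mean over cells (-1.22). Without barcodes holding a Zbtb16 UMI, the log2 ratio was -1.26 for Birc5, -1.21 for Ccnb2, -1.18 for Ccna2 and -1.06 for Ube2c among cell cycle genes, and 1.57 for H2-Aa, 1.33 for H2-Ab1, 1.15 for H2-Eb1 and 1.14 for Cd74 among MHC genes, all 8 past 2-fold, whereas with all cells the largest of the 4 MHC values was 0.83. With only cells holding the sorted coreceptor, H2-Aa (1.23) and Cd74 (1.03) also passed 2-fold. Apoe, a myeloid marker, went from 1.05 to 2.09 without Zbtb16 barcodes and to 1.41 with only cells holding the sorted coreceptor. Cst3 went from -0.08 to -0.10 and to -0.07. In control CD4 cells with and without a Cd4 UMI, Apoe was at 14.4 and 5.4 CPM and H2-Aa at 23.2 and 9.23 CPM. The part of antigen-presenting cells in these values was not tested. Of 12 heat shock genes only Hspb1 (2.96 and 10.6 CPM) was at least 2-fold apart, and of 14 glycolysis genes only Hk2 (6.51 and 15.5 CPM), both towards CD8, a share above 4.30% in each list but from 1 gene. Of 16 immediate early genes, the nuclear receptor gene Nr4a2 was at 89.5 and 266 CPM and Atf3 at 27.9 and 13.5 CPM (log2 0.90 with only cells holding the sorted coreceptor and 0.71 without Zbtb16 barcodes), while Fos (1180 and 1258 CPM) and Jun (1892 and 1643 CPM) differed little. Of 12 genes that restrain MAPK signalling, Spry1 (13.4 and 4.27 CPM) and Dusp4 (11.8 and 5.14 CPM) were at least 2-fold higher in CD4, Dusp4 with a log2 ratio of 0.84 without Foxp3 barcodes. Spry1 and Dusp4 reached 10 CPM through control CD4 alone.

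**Figure D4:**
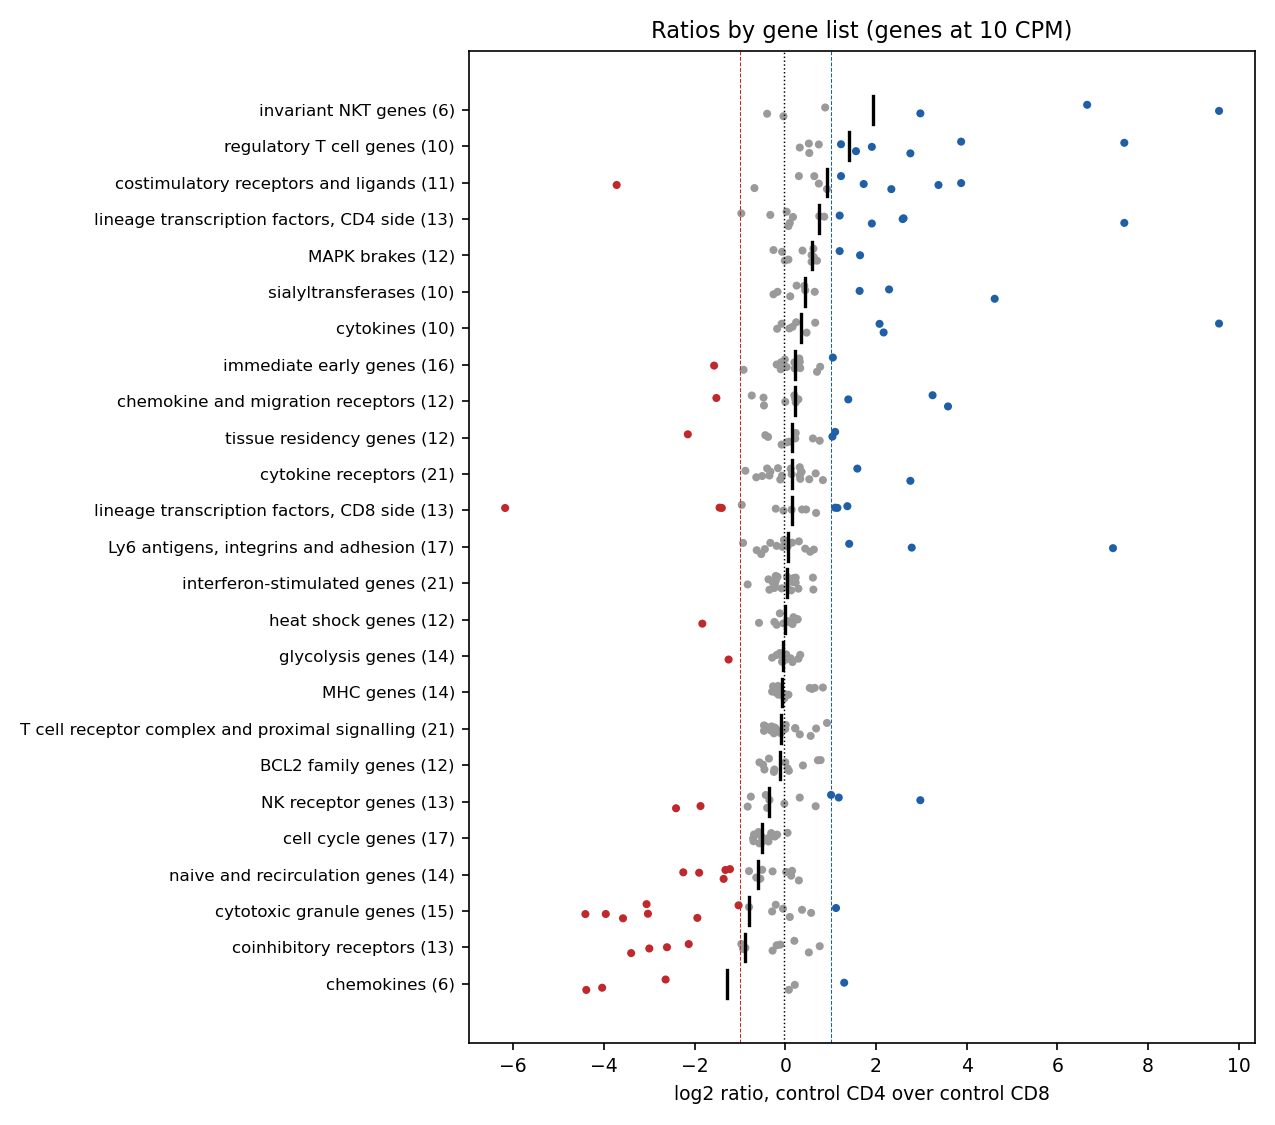
Log2 ratio of control CD4 over control CD8 (x axis) for the genes of each list with at least 6 genes at 10 CPM, the number of these in brackets, 1 point per gene. Black bars are list medians, the dotted line is the median of all 8952 genes (-0.03), dashed lines mark 2-fold, and the chemokine (-1.28) and coinhibitory (-0.88) medians are the lowest.

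Several of the largest differences in CPM lay in very abundant transcripts. Gm42418, a lincRNA (chr17:39846958-39848788, + strand), was at 25808 CPM in control CD4 and 9312 CPM in control CD8. It overlaps AY036118 on the opposite strand, which was at 1742 and 1104 CPM, and their separate values are uncertain too. Cmss1 was at 6968 and 2207 CPM, Cdk8 at 1371 and 434 CPM and the glucocorticoid receptor gene Nr3c1 at 1135 and 541 CPM, each at least 2-fold higher in CD4, Nr3c1 with a log2 ratio of 0.92 without Zbtb16 barcodes. Inpp4b (1795 and 1029 CPM) and Camk1d (1780 and 968 CPM) were higher in CD4 by less than 2-fold. Towards CD8 lay Fau (4944 and 7037 CPM), Eef1a1 (4946 and 6592 CPM), Actb (12190 and 13799 CPM), Tmsb10 (3741 and 5322 CPM), Cd52 (3079 and 3863 CPM) and Ms4a4b (1222 and 1972 CPM), all within 2-fold. Fau is not named Rpl or Rps and so stayed in the total. With the receptor segments, Gm42418, AY036118 and Cmss1 left out of the total, the median log2 ratio moved by 0.03. As a mean over cells, the log2 ratio went from 1.66 to 1.04 for Cmss1, from 1.47 to 1.17 for Gm42418 and from 1.66 to 1.38 for Cdk8. Between IR CD4 and IR CD8 it was 0.28, 0.42 and 0.43 for these genes, all under 2-fold.

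Variable segments of the T cell receptor were sparse in this 3′ chemistry, and 4 Trav and Trbv segments reached 10 CPM. Trav4-4-dv10 (chr14:53683647-53684177) was at 4.46 CPM in control CD4 and 44.2 CPM (42.4 to 46.0) in control CD8. It made up 7.46% of Trav UMIs in control CD4 and 34.9% (33.8 to 36.0, 2432 UMIs) in control CD8. Its UMIs in control CD8 came from 293 cells. Trbv3 was at 3.53 and 20.5 CPM and made up 6.22% and 23.2% of Trbv UMIs, while Trav16n was at 3.76 and 11.4 CPM (6.29% and 9.03% of Trav UMIs) and Trbv12-2 at 9.15 and 13.4 CPM (16.1% and 15.1% of Trbv UMIs). Trbv12-2 thus had a higher CPM but a lower share in control CD8. All Trav segments summed to 59.8 and 127 CPM and all Trbv segments to 56.7 and 88.5 CPM in control CD4 and CD8. All 4 reached 10 CPM through control CD8 alone, so their common direction was set by that limit. Trbv13-2, below it and chosen after its values were seen, was at 8.82 and 5.67 CPM and made up 15.6% and 6.4% of Trbv UMIs. Segments of a family are similar in sequence, and the number of clones behind these UMIs was not examined.

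Markers of other cells that could pass the gate were then summed. Of 9 B cell markers, 1 reached 10 CPM (Ighm, 178 and 157 CPM), none was at 0, and the list summed to 186 and 180 CPM in control CD4 and CD8. Of 12 myeloid markers, 2 reached 10 CPM (Cst3, 95.2 and 100 CPM, and Apoe, 11.3 and 5.43 CPM), S100a8 and S100a9 were at 0, and the sum was 126 and 124 CPM. Of 8 NK cell and ILC markers, which summed to 179 and 160 CPM with none at 0, Eomes and Gata3 reached 10 CPM and both are also T cell genes, while Ncr1 was at 0.17 and 0.363 CPM. Of 7 erythroid and platelet markers and 9 kidney tubule markers none reached 10 CPM, and they summed to 2.37 and 2.02 CPM and to 5.40 and 4.58 CPM, with 1 gene of each list at 0 in each library. Of 9 endothelial and stromal markers, 2 were at 0 in control CD4 and 1 in control CD8, and the list summed to 132 and 101 CPM, of which Pecam1 made up 131 and 100 CPM. Apart from Apoe, which was at least 2-fold higher in control CD4, and Eomes, no marker at 10 CPM in these 6 lists was 2-fold apart. The part of other cells in the results above was not tested.

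The ischemic pair shares no library with the control pair and was compared with it gene by gene. Among 8774 genes at 10 CPM in IR CD4 or IR CD8, 313 (3.57%) were at least 2-fold higher in IR CD4 and 333 (3.80%) in IR CD8. Of the 234 genes higher in control CD4, 181 reached 10 CPM in the ischemic pair and 175 of these (96.7%) were also higher in IR CD4, with a median log2 ratio of 1.66, beside 0.09 over all genes of that pair. Of the 151 higher in control CD8, 125 reached 10 CPM and 121 (96.8%) were also higher in IR CD8, with a median log2 ratio of -1.34. A 2-fold difference in both pairs was found for 136 genes towards CD4, which is 58.1% of the control list and 43.5% of the ischemic list. Towards CD8 it was found for 83 genes, 55.0% and 24.9% of these lists. Control libraries carry Cell Ranger 5.0.1 in their headers and ischemic libraries 6.0.1, and the ischemic libraries are shallower, so levels are not compared between the pairs.

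Il4 was at 91.1 CPM in IR CD4 and 0.135 CPM in IR CD8, Zbtb16 at 73.2 and 0.271 CPM, Cd40lg at 242 and 10.7 CPM and Zbtb7b at 43.3 and 5.82 CPM. Towards CD8, Ccl4 was at 40.6 and 698 CPM, Gzma at 88.1 and 705 CPM, Eomes at 1.59 and 33.0 CPM and Runx3 at 163 and 414 CPM. Gm44174 was at 0.0569 and 72.0 CPM. Ccl1, at 57.8 and 2.17 CPM, had a log2 ratio of 4.74 in the ischemic pair and 1.30 in the control pair, a difference that was not tested. Trav4-4-dv10, at 3.07 and 1.76 CPM, was not higher in IR CD8.

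**Figure D5:**
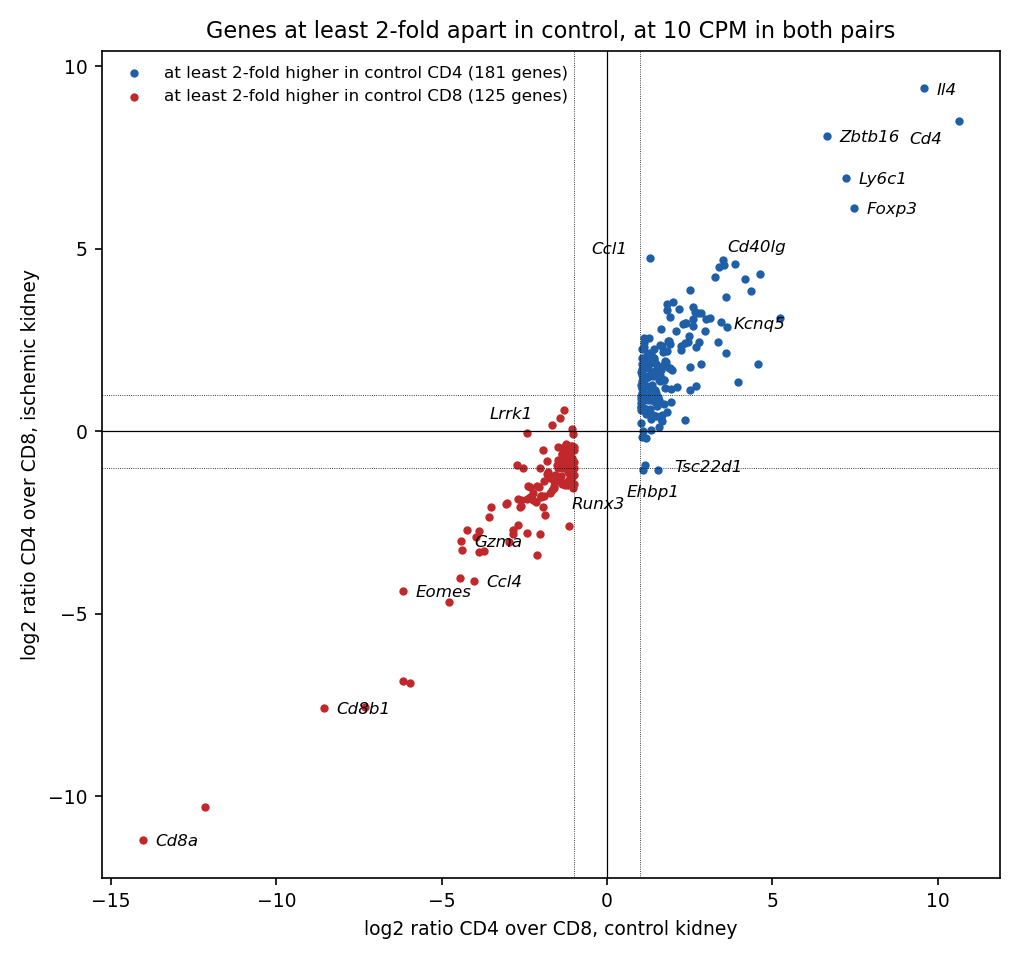
Log2 ratio of CD4 over CD8 in control kidney (x axis) and in ischemic kidney (y axis) for the 181 genes at least 2-fold higher in control CD4 (blue) and the 125 at least 2-fold higher in control CD8 (red) that reached 10 CPM in both pairs, 1 library per group. Solid lines mark equal levels and dotted lines 2-fold; 175 and 121 of these genes have the same sign in both pairs, and Ehbp1 and Tsc22d1 lie more than 2-fold the other way.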

How the data were processed

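Single-cell RNA was measured in 6 libraries of sorted kidney T cells, 1 per group, and the control CD4 and control CD8 libraries were compared. The deposited values are raw, unnormalized UMI counts for each gene and barcode. The authors obtained them from 10x 3′ libraries with Cell Ranger on mm10. The file headers name Cell Ranger 5.0.1 for control and 6.0.1 for IR libraries, whereas the processing notes of the submitters name 6.0.1. The study states default settings. It does not separately state the counting of introns or the use of strand.

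Barcodes were kept as described above. Of the barcodes of control CD4 and CD8, 294 and 1019 had under 500 genes, 154 and 91 over 20% mitochondrial UMIs, and 420 and 424 no Cd3 UMI. No doublet caller was run. After the removal of 104 of 32285 features, genes with a level of 10 CPM in either library and a ratio of 2 or more were counted as higher, and a count of 0 was set to 3 counts in ratios. For shares of cells, 1500 UMIs were drawn from each cell, without replacement, which left 9041, 7998 and 9169 cells in control CD4, CD8 and DN. The 477 and 1687 shallower cells of control CD4 and CD8 were left out. Coordinates came from GENCODE M21 (GRCm38), where 32235 features (99.8%) were matched by identifier, and the promoter from RefSeq, whose table held 17 of the 30 genes with the largest ratios.

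The named genes were Cd4, Cd8a and Cd8b1, the 15 largest ratios in each direction at 50 CPM or more without receptor segments, the 10 largest differences in CPM in each direction, receptor variable segments at 10 CPM, and up to 8 genes of each of 32 lists. In some lists more genes are named as examples of values within 2-fold, as are the neighbours of the coreceptor genes and Trdc, Trdv1, Trdv4, Trav11 and Trbv13-2, and the genes below 50 CPM in the closing section, which were chosen after their values were seen. The cells and lists were chosen with earlier results of these data known. Alternatives included TMM scaling with edgeR 4.0.16 in R 4.3.3, other feature and cell filters, thinning, a mean over cells and other thresholds. Scripts used Python 3.11.15, numpy 2.4.6, scipy 1.17.1 and pandas 2.3.3. Some items are not reported here.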

Additional observations from a re-analysis of the deposited data

Results flagged for a closer look

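For 10 genes that were at least 2-fold apart in control kidney, the ischemic pair at 10 CPM or more had the opposite sign. These differences between the pairs were not tested, since each group had 1 library. Ehbp1 had a log2 ratio of CD4 over CD8 of 1.09 in control and -1.07 in ischemic kidney, at 18.3 and 8.57 CPM and at 20.9 and 43.9 CPM. Tsc22d1 had 1.53 and -1.06, at 19.5 and 6.76 CPM and at 14.2 and 29.5 CPM. Towards CD4 in control kidney lay also Acoxl (1.16, and -0.92 in ischemic kidney), Bmpr2 (1.18 and -0.20), Apoe (1.05 and -0.16) and Gsdme (1.07 and -0.01). Towards CD8 in control kidney lay the inhibitory receptor genes Lilr4b (-1.42 and 0.35) and Lilrb4a (-1.31 and 0.59), which are similar in sequence, and Lrrk1 (-1.66 and 0.16) and Abcb1b (-1.07 and 0.05).

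Barcodes left out for want of a Cd3 UMI held a signal outside the comparison. In control CD4 420 barcodes and in control CD8 424 had no Cd3 UMI, and the 251 and 166 described here met every other limit. The 251 barcodes of control CD4 summed to 1657 CPM over the 12 myeloid markers, against 126 CPM in the cells kept. The 166 of control CD8 summed to 4203 CPM, against 124 CPM. Several other lists, though not all, were also higher in these barcodes than in the cells kept. In control CD4 the B cell markers summed to 442 against 186 CPM, the tubule markers to 34.2 against 5.4 CPM and the endothelial and stromal markers to 413 against 132 CPM. In control CD8 the tubule markers summed to 147 against 4.58 CPM and the endothelial and stromal markers to 780 against 101 CPM, while B cell markers were at 162 against 180 CPM. NK cell and ILC markers were at 150 against 179 CPM in control CD4 and at 177 against 160 CPM in control CD8. Their median depth was 1560 and 1072 UMIs.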

How the results depend on the processing

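Minimum level and fold set the numbers most. With no minimum CPM 2773 genes were higher in control CD4 and 2736 in control CD8, with a minimum of 50 CPM 88 and 54, and at 1.5-fold 551 and 392. The other 14 alternatives gave 201 to 256 and 113 to 163 genes. The lowest numbers of genes shared with the 234 and 151 were 161 and 112, both without Zbtb16 barcodes, an alternative chosen after the data were seen, as were those without Foxp3 barcodes (219 and 159) and with only barcodes holding the sorted coreceptor (221 and 143). Klra1 reversed without Zbtb16 barcodes, from a log2 ratio of 1.18 to -0.37. With the removed features kept, 237 and 113 genes were counted, and the median log2 ratio shifted by 0.10. Nkg7 (-0.93) was then under 2-fold. TMM scaling shifted the median by 0.01. Klrb1f came under 2-fold in several settings, with 0.81 for the top 5% of barcodes left out. The share of genes with the same sign in the ischemic pair lay between 96.7% and 98.1% towards CD4 and between 94.7% and 97.5% towards CD8 over the main choice, a minimum of 50 CPM, and the top 5% of barcodes left out. No paired analysis was possible because each group has 1 library and no test was run.

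Depth limits this comparison little for pooled levels, since 3 UMIs equal 0.0511 and 0.0545 CPM, and more for shares of cells: without thinning, a Zbtb16 UMI was found in 34.1% of control CD4 cells, against 17.7% with it. One library per group leaves mouse, sort and run unmeasured.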

Other observations

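Genes between 10 and 50 CPM held further large ratios, and those named here were chosen after their values were seen. Itgax, which encodes the integrin CD11c and is also a marker of dendritic cells, was at 0.221 CPM in control CD4 and 14.3 CPM in control CD8, with 1.39 CPM in control DN. The ischemic pair had it at 0.569 and 8.67 CPM. The transcripts 1700062C10Rik (0.0681 and 11 CPM) and Gm43698 (0.153 and 11 CPM) were also higher in control CD8, and in the ischemic pair they were at 0.0569 and 10.7 CPM and at 0.74 and 85.6 CPM.

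Towards CD4, the phosphodiesterase gene Pde7b was at 15.8 CPM in control CD4 and 0.418 CPM in control CD8. Npas2, a factor of the circadian clock, was at 15.2 and 0.672 CPM, Cap2, an actin regulator, at 27.6 and 1.18 CPM, Slc35f3 at 32.1 and 1.58 CPM and Tmem273 at 38.3 and 2.13 CPM. In control DN these 5 genes were at 16.1, 23.8, 58.9, 82.0 and 47.0 CPM, each above its level in control CD4.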
